A study of Mus musculus with 6 samples.

Results

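The cytosolic and mitochondrial heat shock proteins were described in Lewis cells, a mouse lung carcinoma line, treated for 24 hours with SD70, an inhibitor of the histone demethylase KDM4C, or with DMSO alone. The members were chosen by gene symbol: heat shock protein genes, J-domain protein genes of the DNAJA, DNAJB and DNAJC classes, the BAG family and the heat shock factors Hsf1 and Hsf2. Left out were 7 chaperones of the endoplasmic reticulum (ER) and the matrix proteoglycan Hspg2, while J-domain proteins of the ER membrane were kept. The rule found 72 members among 16081 listed genes, and 59 of them had enough reads to be tested, of 11552 genes tested in all. RNA-seq of 3 DMSO samples and 3 SD70 samples was compared. Both groups are samples of 1 cell line grown in the same medium, no genotype differs between them, and the SD70 dose is not given in the sources used here. The labels do not say that the samples of a group came from separate cultures, and the paper says only in general that experiments were repeated independently. Where the samples were not separate cultures, p-values measure a spread that may be technical. Every measurement is of RNA, and no protein level was measured.

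Totals were 15276744 to 17060424 counts per sample, the lowest in SD70 sample 3. The sample labels call the cells lung adenocarcinoma cells. The epithelial marker Krt8 was at 122 FPKM (a level per gene length and library size) over the 6 samples, whereas Epcam and Cdh1 had at most 1 count in any sample. The mesenchymal marker Vim was at 2127 FPKM and the alveolar marker Sftpc had at most 1 count. Krt8 and Vim fell under SD70, by 0.55 and 0.47 on the log2 scale, as did Krt18 (3.07 FPKM, by 1.22) and Fn1 (67.4 FPKM, by 0.23). The mesenchymal S100a4 (544 FPKM) did not pass, and the mesenchymal Cdh2 had at most 1 count in any sample. The part of the marker genes in the results was not tested. Of the immune markers, Ptprc and Csf1r had at most 2 counts, Coro1a at most 4 and Lyz2 11 to 26, while Cd68 was at 11.6 FPKM and fell by 0.48 on the log2 scale. Of the endothelial markers, Pecam1 had at most 4 counts, Kdr at most 2 and Tie1 at most 6, while Cdh5 had 56 to 65. The fibroblast markers Pdgfra and Dcn were at 12.4 and 33.7 FPKM and fell by 1.00 and 0.19 on the log2 scale, and Col1a1 had at most 6 counts.

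Heat shock proteins are molecular chaperones. HSP70 proteins bind unfolded stretches of other proteins and release them in a cycle driven by ATP. J-domain proteins (DNAJ) bring clients and start ATP hydrolysis, and exchange factors (HSP110 and BAG proteins) let the client go. HSP90 takes over late folding steps of kinases and receptors, and tumor cells are known to use it heavily. Mitochondria have a set of their own, an HSP70 that pulls proteins in through the membrane and the HSP60 and HSP10 chamber in which they fold. In heat and other protein stress, the transcription factor HSF1 raises many of these genes through repeats of the letters GAA, called heat shock elements.

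SD70 did not move the heat shock proteins as one block. Of the 59 tested members, 15 rose, 15 fell and 29 did not pass the test (edgeR's quasi-likelihood test, adjusted p under 0.01). The share that changed was 50.8%, where 49.9% of all genes tested changed. The share that rose was 25.4% against 25.8% of all genes, and the share that fell was 25.4% against 24.2%. The median log2 fold change was 0.014 over the tested members and -0.0043 over all genes, and the median size of the change was 0.212 and 0.2507. The groups did not overlap for 38 members (64.4%), the same share as over all genes (64.4%). As a set, the members were therefore close to the background. Among the falls were the cytosolic HSP70 genes Hspa8 and Hspa1b with their J-domain partners Dnajb1, Dnajb4, Dnajb5 and Dnaja1. Among the rises were the mitochondrial chaperones Hspa9, Hspd1 and Hspe1, but also Hspa4, Hspa14, Dnajb2 and Dnajc7, which are not mitochondrial. In RNA of whole cultures, fewer cells that express a gene and less RNA per cell cannot be told apart.

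Changes of at least 2-fold were few. They were found for 3 members (5.08%, against 5.9% of all genes), and Hspa1b, Dnajb1 and Dnajb5 were all lower under SD70, a direction in which 2.61% of all genes passed. No member rose 2-fold (3.29% of all genes did) in edgeR or under any of the 16 alternatives. The highest log2 fold change in edgeR was the 0.81 of Hspa9, which reached 0.84 without SD70 sample 2.

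**Figure D1:**
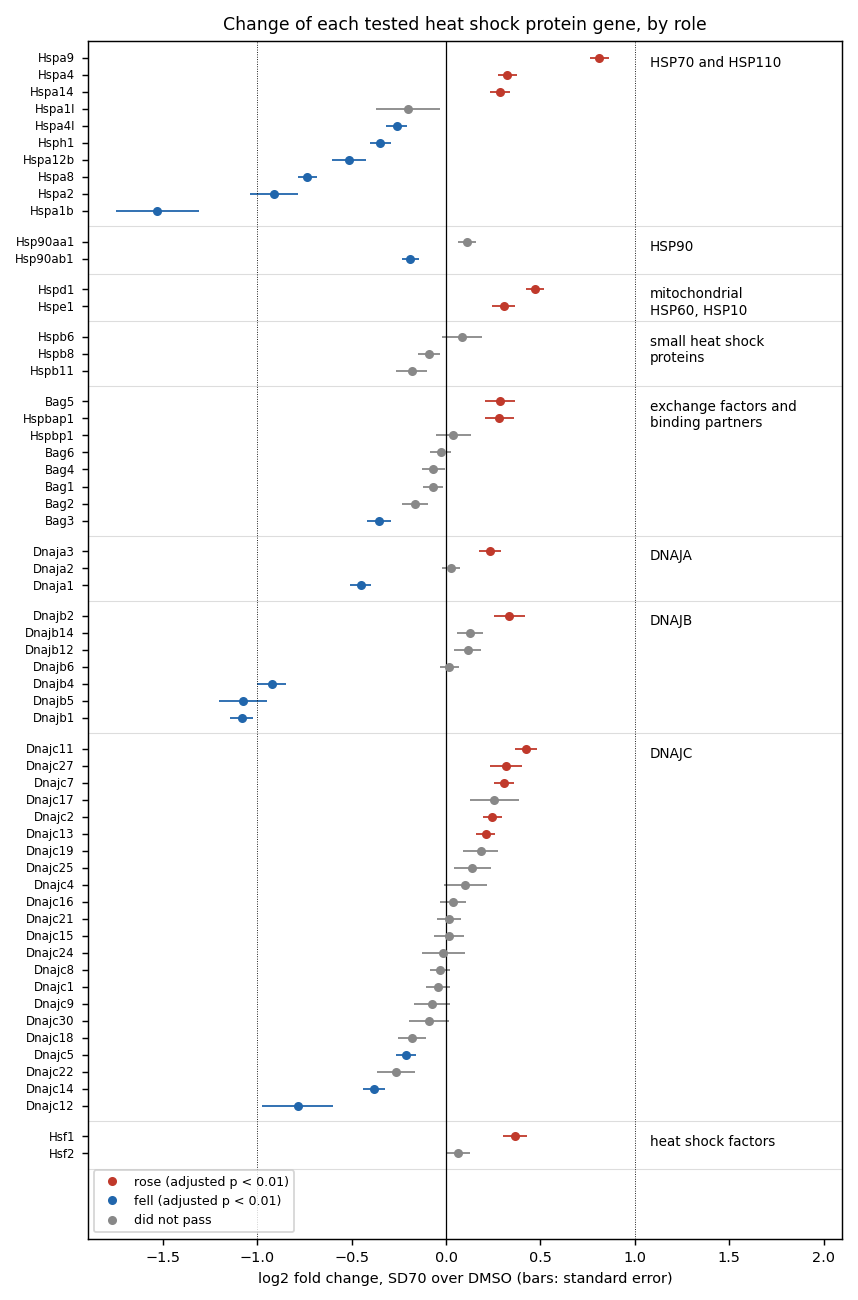
Log2 fold change under SD70 (x axis, bars are standard errors) of the 59 tested members, grouped by role (y axis), in red where they rose, blue where they fell and grey where they did not pass; dotted lines mark 2-fold. The 3 points beyond a dotted line, Hspa1b, Dnajb1 and Dnajb5, all lie on the lower side.

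Hspa8 encodes the constitutive cytosolic HSP70, which folds new proteins and strips clathrin from vesicles, and it was the second most abundant member at 1449 FPKM over all samples. DMSO samples 1 to 3 had 57155, 59831 and 61940 counts, against 35656, 36341 and 28928 under SD70. Every SD70 sample lay below every DMSO sample. Its log2 change was -0.73 (standard error, SE, 0.0513, adjusted p = 1.99e-14), or -39.9%. The gene (NCBI Gene 15481) lies on GRCm38 at chr9:40801276-40805202.

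The stress-inducible cytosolic HSP70 is encoded by a pair of near-identical genes on chromosome 17. Hspa1b (NCBI Gene 15511, chr17:34956429-34959238) had 56, 64 and 72 counts under DMSO and 28, 17.8 and 16.5 under SD70. It had the largest fall of all members, with a log2 change of -1.53 (SE 0.22, adjusted p = 2.87e-07). Hspa1a (chr17:34969359-34972156) was listed at 0 in every DMSO sample and at 0, 1.2 and 2.6 counts under SD70, and was not tested. In both groups the inducible pair was therefore a small part of the HSP70 messages, with Hspa1b at 1.43 ± 0.16 FPKM under DMSO and 0.483 ± 0.136 under SD70 (SD, n = 3) beside 1824 ± 51.4 and 1074 ± 74.4 for Hspa8.

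The counts of the pair depend on how shared reads were assigned. Of all stretches of 100 bases in the longest Hspa1b transcript, 49.9% occur in Hspa1a, 3.29% in Hspa1l and 0 in Hspa8 or Hspa2 (GENCODE M21). With both rows summed, a calculation added after the data were seen, the pair had 56, 64 and 72 counts under DMSO and 28, 19 and 19 under SD70, and a log2 change of -1.44 (SE 0.213, adjusted p = 5.01e-07). The fall therefore held for the pair as a whole.

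The upstream sequence of Hspa1b is shown because this gene moved most and because the stretch holds 2 units of a heat shock element. This short motif is common, found near the start of 17% of all genes. The longer motif of 3 units was not found near the start of Hspa1b. The 250 bases before its start (RefSeq, GRCm38.p6, chr17:34959239-34959488, minus strand) lie in no annotated exon and are identical to those of Hspa1a at 247 positions (98.8%). Capitals mark 2 GAA units facing each other, the motif GAANNTTC, at positions -104 to -97 from the start.
Hspa1b: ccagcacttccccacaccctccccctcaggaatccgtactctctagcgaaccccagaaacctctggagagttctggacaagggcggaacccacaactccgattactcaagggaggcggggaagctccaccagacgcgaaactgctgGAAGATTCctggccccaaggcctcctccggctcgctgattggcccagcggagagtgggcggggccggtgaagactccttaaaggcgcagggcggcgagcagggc

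The HSP70 and HSP110 genes fell in part and rose in part. This role has 12 members, with Hspa8, Hspa1b, Hspa1a and Hspa9 among them, and 10 were tested. Of these, 6 fell (60%, against 24.2% of all genes) and 3 rose (30%, against 25.8%), with a median log2 fold change of -0.30. Hspa2, an HSP70 best known from the testis, had 159, 151 and 170 counts under DMSO and 75, 89 and 75 under SD70, and fell by 0.91 on the log2 scale (SE 0.128, adjusted p = 1.93e-07). Among the HSP110 exchange factors, Hsph1 fell, from 2686, 2952 and 2932 counts to 2172, 2282 and 1860 (log2 change -0.35, SE 0.0533, adjusted p = 9.38e-07). Its relative Hspa4l fell too (-0.26), whereas Hspa4 rose (0.32). HSP110 genes thus moved in both directions. Hspa14, an HSP70 that works at the ribosome, rose by 0.29, and the divergent HSP70 gene Hspa12b fell by 0.51. Hspa1l did not pass (-0.20, adjusted p = 0.316), and Hspa12a, at 3 to 12 counts, was not tested.

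The mitochondrial HSP70 gene Hspa9 (mortalin, NCBI Gene 15526) went the other way from Hspa8. It had 14209, 14777 and 14695 counts under DMSO and 23711, 23811 and 24065 under SD70, with a log2 change of 0.81 (SE 0.05, adjusted p = 6.63e-16). Its level rose from 300 ± 5.89 to 514 ± 32.4 FPKM (SD, n = 3). The order of the most abundant members changed with it. With DMSO, Hspa9 was the sixth, under Hsp90aa1 at 454 ± 15.8 FPKM and Hspe1 at 345 ± 30.5. With SD70 it lay beside Hsp90aa1 (479 ± 19.9) without a gap, since the values of the samples overlapped.

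Within each sample, the ratio of Hspa9 to Hspa8 counts needs no scaling between libraries. The ratio was 0.249, 0.247 and 0.237 under DMSO and 0.665, 0.655 and 0.832 under SD70. All SD70 samples were higher, the exact two-sided permutation test giving p = 0.1, the smallest value that the 20 arrangements of 3 against 3 samples allow. These arrangements do not keep samples of the same number together. Since Hspa9 rose and Hspa8 fell, each with the groups apart, the separation of the ratio was fixed in advance and is no further test. The highest of the SD70 ratios belonged to sample 3, which also had the fewest counts in total.

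**Figure D2:**
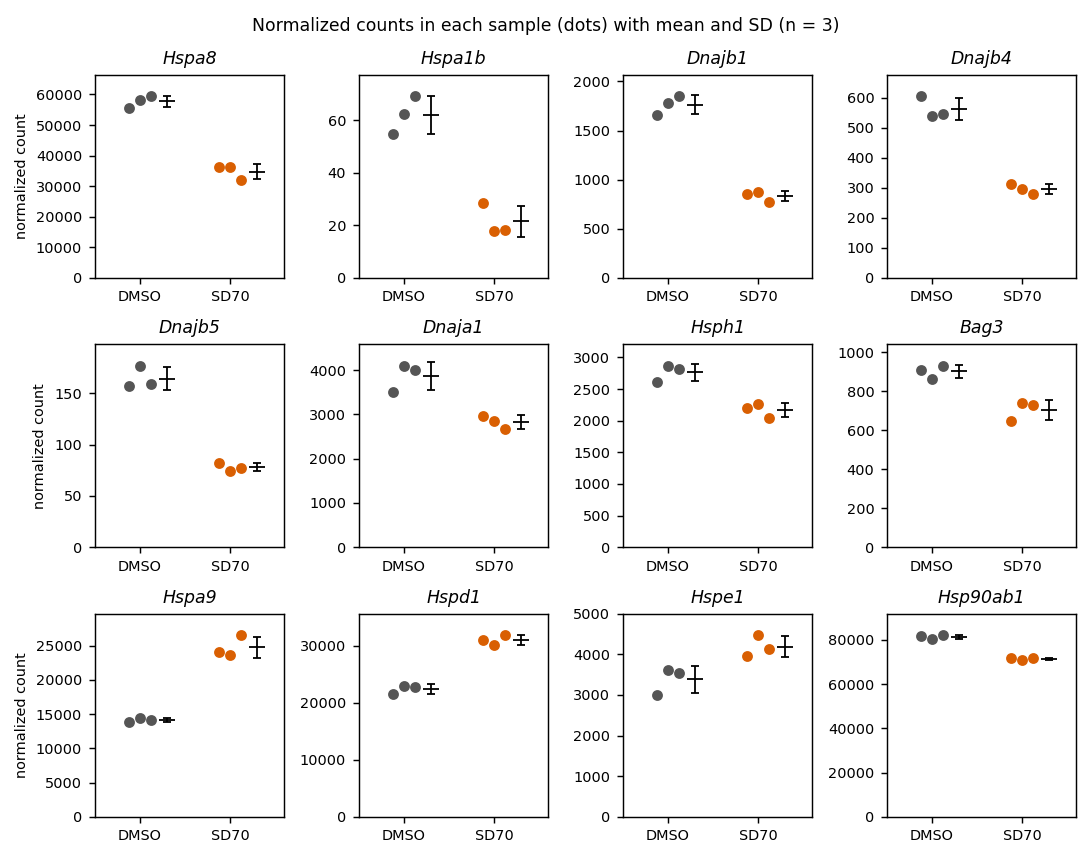
Normalized counts (y axis, scaled to a common library size) of 12 members in each DMSO and SD70 sample, with the mean and SD beside the dots (n = 3). The 3 SD70 samples lie below all DMSO samples in the upper 8 panels and for Hsp90ab1, and above them for Hspa9, Hspd1 and Hspe1.

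Both subunits of the mitochondrial folding chamber rose. Hspd1 (HSP60) had 22030, 23687 and 23713 counts under DMSO and 30561, 30443 and 28945 under SD70 (log2 change 0.47, SE 0.0479, adjusted p = 2.15e-10). Hspe1 (HSP10), which forms its lid, had 3084, 3716 and 3701 counts and then 3893, 4497 and 3765 (log2 change 0.31, SE 0.0616, adjusted p = 0.00016). The groups were apart for both genes, by a wide gap for Hspd1 and a narrow one for Hspe1. The ratio of Hspd1 to Hspe1 counts was 6.64 ± 0.435 under DMSO and 7.44 ± 0.583 under SD70 (SD, n = 3), and the groups overlapped.

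Hspd1 and Hspe1 lie head to head on chromosome 1, and the stretch between them is shown because it is shared by a pair of genes that rose together. The RefSeq start sites face each other with 215 bases between them, Hspd1 leaving on the minus strand from 55087932 and Hspe1 on the plus strand from 55088148. Capitals mark 18 bases (chr1:55088059-55088076) that hold overlapping matches to the motif of 3 units, GAANNTTCNNGAA or TTCNNGAANNTTC. They end 72 bases before the start of Hspe1 and begin 127 bases from that of Hspd1. The RefSeq table holds a further Hspd1 window, of a start beyond that of Hspe1 (chr1:55088194-55088493), and a GENCODE M21 transcript of Hspd1 has an exon across this site. Exons of the 2 genes overlap by 112 bases, and whether counting used the strand is not stated in the sources used here.
Hspd1 and Hspe1, chr1:55088053-55088082, plus strand: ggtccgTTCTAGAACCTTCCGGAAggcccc

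The motif of 3 units was found in the promoter windows (250 bases before to 50 after the start) of 179 of 27025 genes (0.662%) and of 4 of the 57 members with a window in the RefSeq table (7.02%). These were Hspd1 and Hspe1, which rose, Hsph1, which fell, and Dnajb6, which did not pass. The shorter motif of 2 units (GAANNTTC or TTCNNGAA, which also lies inside the longer one) was found in 17% of all genes and in 15 members (26.3%). Of those, 5 fell (Bag3, Dnaja1, Dnajb4, Hspa1b and Hsph1), 3 rose (Dnajc27, Hspd1 and Hspe1), 3 did not pass and 4 were not tested, while 25.8% of all genes tested rose and 24.2% fell. Dnajb1 has no match in its 2 windows, and Hspa8 was not found in this table. Each motif has its reverse complement beside it or is its own, so that both strands were searched, and a match describes the letters only. Sites of 4 members are shown for comparison, with capitals on the match, which has 2 units in Dnaja1, Dnajb4 and Hsph1, which fell, and 3 units in Dnajb6. The 3 units of Hsph1 are a separate match after the start, at chr5:149636280-149636308, and are not printed.
Dnaja1, chr4:40722333-40722362, plus strand: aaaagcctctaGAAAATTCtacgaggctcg
Dnajb4, chr3:152193841-152193870, minus strand: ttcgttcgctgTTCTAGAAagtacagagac
Hsph1, chr5:149636351-149636380, minus strand: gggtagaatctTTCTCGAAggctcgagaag
Dnajb6, chr5:29735844-29735872, plus strand: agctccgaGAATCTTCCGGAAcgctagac

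The J-domain proteins were the largest role, with 38 members in the 3 classes and 32 tested. Of these, 7 rose and 7 fell (21.9% each, where 25.8% and 24.2% of all genes did), and the median log2 fold change was 0.02. The falls reached further than the rises. The 7 members that fell had log2 fold changes between -1.08 and -0.21, and the 7 that rose between 0.21 and 0.42.

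The deepest falls were in the DNAJB class, in a group of close relatives that work with cytosolic HSP70. Dnajb1, the main heat-inducible J-domain protein (NCBI Gene 81489, chr8:83608175-83612653), had 1702, 1836 and 1928 counts under DMSO and 837, 882 and 700 under SD70 (log2 change -1.08, SE 0.0604, adjusted p = 4.2e-17). Dnajb5 had 161, 182 and 166 counts and then 81, 75 and 70 (-1.08, SE 0.128, adjusted p = 6.3e-09). Dnajb4 had 620, 553 and 568 counts and then 308, 299 and 252 (-0.93, SE 0.0787, adjusted p = 2.9e-12). In all 3 genes the highest SD70 sample was well below the lowest DMSO sample. The class as a whole did not follow them: Dnajb2, which also binds ubiquitin, rose by 0.34, and Dnajb6, known for holding back protein aggregates, was at 0.02 (adjusted p = 0.79). Dnajb12 and Dnajb14 of the ER membrane did not pass.

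In the DNAJA class each of the 3 tested members behaved differently. Dnaja1, a cytosolic partner of Hspa8, had 3609, 4219 and 4178 counts under DMSO and 2919, 2875 and 2428 under SD70 (log2 change -0.45, SE 0.0558, adjusted p = 2.09e-08). Dnaja2, the most abundant of the class at 120.6 FPKM, was at 0.03 (adjusted p = 0.667), a value whose sign turned with upper quartile scaling (-0.02). The mitochondrial Dnaja3 rose by 0.23 (SE 0.0593, adjusted p = 0.00106), and lost its call without SD70 sample 3 (0.18, adjusted p = 0.017).

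Of 22 tested DNAJC genes, which have little in common but the J domain, 5 rose and 3 fell, a share of 36.4% beside the 49.9% of all genes that changed. Dnajc11, a mitochondrial protein linked to the cristae, rose most, from 995, 1076 and 1072 counts to 1269, 1431 and 1251 (log2 change 0.42, SE 0.0579, adjusted p = 1.07e-07). The other rises were those of Dnajc27 (0.32), Dnajc7 (0.31), the ribosome-associated Dnajc2 (0.25) and the endosomal Dnajc13 (0.21). Dnajc12, a partner of the aromatic amino acid hydroxylases, had 60, 106 and 87 counts under DMSO and 47, 41 and 49 under SD70 (log2 change -0.79, SE 0.189, adjusted p = 0.00061). Dnajc14 of the ER membrane fell by 0.38 and the vesicle protein Dnajc5 by 0.21. Dnajc8, a splicing protein and the most abundant of the class at 197 FPKM, was at -0.03 (adjusted p = 0.635). Without DMSO sample 2, the calls of Dnajc27, Dnajc13, Dnajc12, Bag5 and Hspbap1 were lost and 25 members remained called. Without SD70 sample 3, those of Dnaja3, Dnajc27, Bag5 and Hspbap1 were lost and 26 remained. Dnajc27 also lost its call without DMSO sample 1, and Dnajc13 with limma on log2(FPKM + 1) and on log2(FPKM + 0.1).

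**Figure D3:**
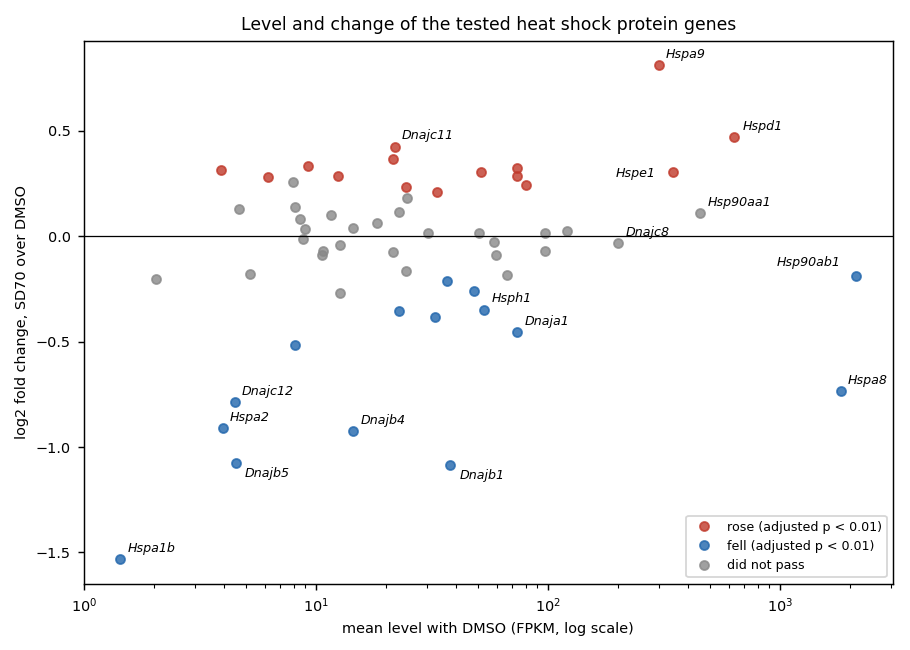
Mean level under DMSO (x axis, FPKM, log scale) against the log2 fold change under SD70 (y axis) of the 59 tested members, colored by the outcome of the test. Rises and falls are found at low and high levels, and the members above 300 FPKM include Hspa8 and Hsp90ab1 below 0 and Hspd1 and Hspe1 above.

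Of the HSP90 genes, 1 of 2 passed, with a small change. Hsp90ab1, the constitutive form, was the most abundant member, with 84065, 82650 and 85502 counts under DMSO and 70658, 71206 and 65059 under SD70. It fell by 0.19 on the log2 scale (SE 0.0456, adjusted p = 0.000542), from 2129 ± 20.2 to 1825 ± 14.2 FPKM (SD, n = 3). Hsp90aa1, the more inducible form, had 19707, 21150 and 20770 counts and then 22140, 21423 and 18748, and did not pass (0.11, SE 0.0487, adjusted p = 0.0514). The ratio of Hsp90aa1 to Hsp90ab1 counts was 0.234, 0.256 and 0.243 under DMSO and 0.313, 0.301 and 0.288 under SD70. The ratio was higher in all 3 SD70 samples (exact two-sided permutation p = 0.1, the smallest possible). The normalized counts of both genes were already apart between the groups, in opposite directions, so this outcome was fixed in advance.

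**Figure D4:**
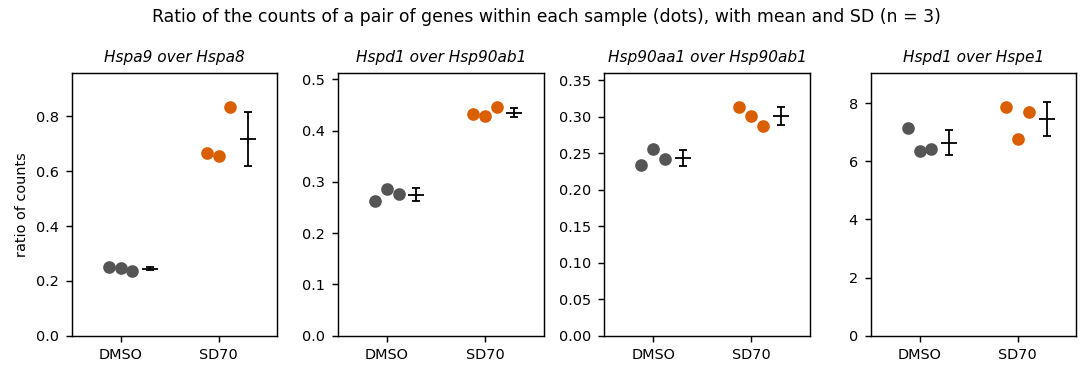
Ratio of the counts of a pair of genes (y axis) within each DMSO and SD70 sample, with mean and SD (n = 3). The SD70 samples lie above all DMSO samples for Hspa9 over Hspa8, Hspd1 over Hsp90ab1 and Hsp90aa1 over Hsp90ab1, and the groups overlap for Hspd1 over Hspe1.

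Among the 8 BAG proteins and other binding partners, 2 rose and 1 fell, a share of 37.5% beside the 49.9% of all genes. Except for Hspbap1, these release clients from HSP70 or link it to other machinery. Bag3, which joins HSP70 to small heat shock proteins and autophagy, had 931, 890 and 969 counts under DMSO and 636, 743 and 662 under SD70 (log2 change -0.36, SE 0.0645, adjusted p = 1.45e-05). All SD70 samples were lower. Bag5 rose by 0.29 (SE 0.0774, adjusted p = 0.00191), but the call was lost without DMSO sample 2 (adjusted p = 0.0203), DMSO sample 3 (0.0104) or SD70 sample 3 (0.02). Hspbap1, a binding partner of Hspb1, rose by 0.28. Bag1, the most abundant of these at 93.7 FPKM, was at -0.07 (adjusted p = 0.262), and Bag2, Bag4, Bag6 and Hspbp1 did not pass either.

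The small heat shock proteins, which hold unfolded proteins without ATP, were hardly expressed apart from a few. Of 7 listed members 3 were tested, and none passed in edgeR or DESeq2, with Hspb11 at an unadjusted p of 0.0336. Of all genes tested, 49.9% passed in edgeR and 44.4% in DESeq2, and 3 genes are too few to compare with these shares. Hspb8, a partner of Bag3, had 1656, 1579 and 1746 counts under DMSO and 1479, 1636 and 1277 under SD70, and the groups overlapped (log2 change -0.09, adjusted p = 0.185). Hspb11, named with this family but a protein of ciliary transport, was at -0.18 (adjusted p = 0.055; -0.10 and 0.323 without SD70 sample 3), and Hspb6 at 0.08. Hspb1 (HSP27), a classic heat-inducible gene, had 2 counts in DMSO sample 3 and was listed at 0 in the other 5 samples.

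Hsf1, which encodes the main activator of the heat shock response, had 685, 696 and 743 counts under DMSO and 791, 927 and 841 under SD70. It rose by 0.36 on the log2 scale (SE 0.0656, adjusted p = 1.29e-05), with all SD70 samples above all DMSO samples. Hsf2 was at 0.07 (adjusted p = 0.388) and its groups overlapped. RNA levels do not show the activity of HSF1, which is set largely on the protein.

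Split by place in the cell, a split made after the values were seen and given as a description, the 8 mitochondrial members were mostly on the higher side. Of these, 5 rose (Hspa9, Hspd1, Hspe1, Dnaja3 and Dnajc11), and Dnajc15, Dnajc19 and Dnajc30 did not pass, at 0.01, 0.18 and -0.09. Their median log2 fold change was 0.27. Of the other 51 tested members 10 rose and 15 fell, with a median of -0.03. The shares were 62.5% rising among the mitochondrial members, and 19.6% rising and 29.4% falling among the others, beside 25.8% and 24.2% of all genes. Of the 6 members of the ER membrane, 1 passed, the Dnajc14 described above. Exons on the opposite strand overlap those of Dnaja1 (Smu1, 608 bases), Dnajc14 (Ormdl2, 1114 bases) and Dnaja3 (Coro7, 153 bases), and their part in the counts was not tested.

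The 13 members that were not tested had at most 12 counts in any sample. Besides Hspa1a, Hspb1 and Hspa12a they were Dnaja4, Dnajb3, Dnajb7, Dnajb13, Dnajc5b, Dnajc6, Hspb3, Hspb7, Hspb9 and the pseudogene Dnajc19-ps.

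Folding genes beyond these members were counted in 5 lists, and 22 rose (33.8%) and 9 fell (13.8%) of 65 tested, with a median log2 fold change of 0.07. The share that changed was 47.7%, beside the 49.9% of all genes, of which 25.8% rose and 24.2% fell. Among 15 tested genes of mitochondrial protein quality control 7 rose (46.7%) and 1 fell (6.67%), with a median of 0.13 and 53.3% changed. Clpb, a mitochondrial disaggregase, rose by 0.59 (adjusted p = 1.58e-09), and the unfoldase Clpx fell by 0.41 (adjusted p = 4.19e-07). Trap1, the mitochondrial HSP90, was among those that rose (0.27, adjusted p = 5.2e-05). Of 22 co-chaperones of HSP90 and HSP70, 6 rose and 2 fell. Chordc1, which binds HSP90 and is raised by heat, rose by 0.60 (adjusted p = 4.33e-11), and the HSP90 partner Nudc fell by 0.47 (adjusted p = 1.12e-09).

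In the cytosolic chaperonin and prefoldin, which fold actin and tubulin, 3 of 14 genes rose and 3 fell (21.4% each, where 25.8% and 24.2% of all genes did), none by more than 0.29, the value of Cct6a, and with Pfdn1 at -0.28. Of 7 tested heat-inducible genes that the choice of members does not cover, such as the collagen chaperone gene Serpinh1, 3 rose (42.9%) and 1 fell (14.3%). The largest of these rises was that of Sqstm1, the autophagy receptor p62, at 0.89 (adjusted p = 9.32e-16). The 7 ER chaperones that the choice of members had left out were mixed as well. Dnajb9 rose by 0.72, Hspa5 (BiP) by 0.35 and Dnajb11 by 0.26, whereas Hspa13 fell by 0.19 and Hsp90b1 by 0.16. These lists were made with earlier results of these data known.

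**Figure D5:**
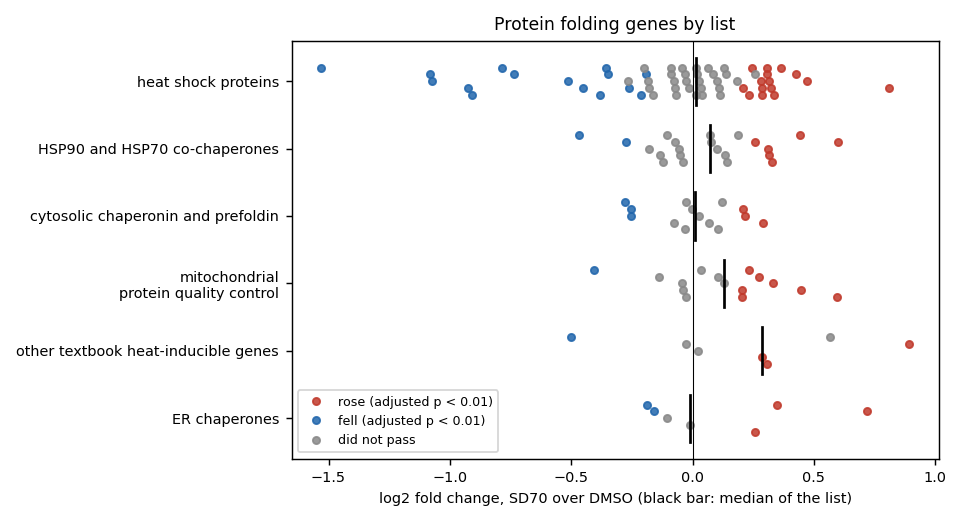
Log2 fold change under SD70 (x axis) of the tested genes of the heat shock proteins and of 5 further lists of folding genes (y axis), colored by the outcome of the test, with a black bar at the median of each list. The falls beyond -0.6 are all among the heat shock proteins, and the median of every list lies between -0.0107 and 0.2858.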

How the data were processed

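Lewis cells gave 6 RNA-seq samples, 3 of DMSO and 3 of SD70 by their labels. The authors aligned clean reads to GRCm38.p6 with HISAT, and the submitters' processing notes name StringTie 1.3.3b and the build mm8. The builds disagree, so coordinates here are those of RefSeq on GRCm38.p6, found by NCBI Gene identifier. The authors deposited an expected count per gene, not normalized, and an FPKM value, scaled for gene length and library size. The counting tool, its use of strand and the treatment of shared reads are not given in the sources used here.

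Expected counts were rounded, filtered by filterByExpr, normalized by TMM and tested with the quasi-likelihood test of edgeR 4.0.16 in R 4.3.3, with Benjamini-Hochberg adjustment over 11552 genes. Rose and fell mean an adjusted p under 0.01, and 2-fold a log2 change of 1 or more in size as well. The paper gives the same values without saying that its p is adjusted. Standard errors came from the F statistic. Levels are compared between genes only as FPKM. The scripts were tested on simulated data first. No pair of samples agreed within sampling noise (chi-square per gene 2.21 to 5.37). Samples with the same number in both groups deviated together (r from 0.116 to 0.182 for same numbers, -0.144 to -0.0117 for others, across 10269 genes, which are not independent), so a fit with the number as a block was an alternative.

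The members and lists were chosen with earlier results of these data known. Named are 16 well-known members, those past 2-fold, the largest rise and fall with at least 100 mean normalized counts and the highest FPKM in each role, and the largest rise and fall of each further list. A gene that this rule names is not reported here. Other members, Trap1 and the remaining ER chaperones were picked once their values had been seen. Alternatives were other scalings and filters, DESeq2 1.42.0, limma 3.58.1 on log2(FPKM + 1) and log2(FPKM + 0.1), glmTreat against a fold of 1.2, an adjusted p under 0.05, leaving out each sample and, added later, Hspa1a and Hspa1b summed.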

Additional observations from a re-analysis of the deposited data

How the results depend on the processing

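The number of members called was within 1.5 times the 30 reported under all alternatives except glmTreat, and no called member changed sign under any. Leaving out each sample in turn gave 25 to 31 members, 24 to 29 further folding genes (31 reported) and a median log2 fold change of the members from -0.00564 to 0.0219. With the replicate block, 30 members were called, the same 30 genes, with a median of 0.0134, and the counts of further folding genes (31) and of named members that passed (18) did not move, while calls over all genes went from 5767 to 5913. Against a fold of 1.2 (glmTreat), 12 members remained, 3 higher and 9 lower, with 9 of the 18 named members that had passed, and 8 further folding genes, 6 higher and 2 lower, since this asks for more than any change. Members lost there include Hsf1, Hspe1, Hsph1, Bag3 and Hsp90ab1. On log2(FPKM + 1), 1 member passed 2-fold in place of 3 (1 lower), and Hspa1b was at -0.72, since the pseudocount shrinks low genes. The median of the members was -0.0286 with upper quartile scaling and -0.0244 with all genes of at least 1 count, where the sign turned around a value near 0. Among the named members, those that reversed had not passed: Dnaja2 with upper quartile scaling (-0.0168) and on both FPKM scales (-0.0063 each), Dnajb6 with upper quartile scaling (-0.026), and, when a sample was left out, Dnajb6 (from -0.0146 without SD70 sample 1 to 0.0364) and Dnajc8 (from -0.0933 to 0.0143 without SD70 sample 2). An adjusted p under 0.05 gave 33 members. The 13 untested members had too few counts for the test, and Hspa1b rests on 16.5 to 72 counts per sample.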

Other observations

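The share of all counts taken by the members shifted in its make-up more than in its total. Together they took 1.63% ± 0.0281 of the counts under DMSO and 1.52% ± 0.0129 under SD70 (SD, n = 3). The 8 mitochondrial members went from 0.261% ± 0.00964 to 0.377% ± 0.0129, and the others from 1.37% ± 0.0196 to 1.14% ± 0.0236. Hspa8 alone went from 0.353% ± 0.0119 to 0.207% ± 0.015. Relative to Hspa8, the J-domain partner Dnajb1 was lower with SD70 (0.0305 ± 0.000687 and 0.024 ± 0.00044 counts per count of Hspa8) and Bag3 was higher (0.0156 ± 0.000708 and 0.0204 ± 0.00252). Both ratios were apart between the groups, in which an exact permutation test that ignores the sample numbers cannot go below 0.1.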
